A study of Mus musculus with 5 samples.

Results

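The interferon response genes described here are 43 genes: the 4 subunits of the interferon alpha/beta and interferon gamma receptors, and 39 genes that interferons induce or that act in the induced state. They were taken from a list by symbol, and all 43 were found among the 55450 genes of the feature tables. The series holds 5 single-cell RNA libraries (10x Genomics droplets, read from the 3' end of the transcript) of sorted bone marrow progenitors from wild-type Balb/C mice 8 to 12 weeks old. There was 1 library of LMPP (lymphoid-primed multipotent progenitors), 1 of CMP (common myeloid progenitors) and 3 of GMP (granulocyte-monocyte progenitors), and the labels name no treatment. All cells were enriched for c-Kit on magnetic beads and gated as lineage-negative, c-Kit+ and CD34+. LMPP were also Sca-1+ and Flt3+, CMP were Sca-1- with low CD16/32, and GMP were Sca-1- with high CD16/32. The labels do not say how many mice each library pooled, or whether different animals gave the 3 GMP libraries; p-values thus measure the spread between these 3 GMP samples, which may be technical.

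Interferon alpha and beta bind the receptor made of Ifnar1 and Ifnar2, and interferon gamma binds the receptor made of Ifngr1 and Ifngr2. Kinases of the Jak family then start signalling. A complex that contains Stat2 and Irf9 binds the interferon-stimulated response element (ISRE) in front of its target genes, and the gamma-activated site (GAS) serves the response to interferon gamma. The induced proteins sense foreign nucleic acid, degrade or hold back viral RNA, and block the entry or release of virus particles. Blood stem and multipotent cells are known to hold some of these RNAs without infection. The Sca-1 antigen used in the gates is the product of Ly6a, which is itself interferon-inducible and is not among the 43 genes.

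After filtering, the libraries held 7511 LMPP, 6880 CMP and 8429, 9016 and 7334 GMP cells (replicates 1, 2 and 3), with a median of 9192, 10028, 10648, 12761 and 15062.5 UMIs (counted molecules) per cell. Marker genes separated GMP from CMP. All 6 granulo-monocytic markers (Elane, Mpo and others) rose in GMP over CMP, and all 7 stem and multipotent markers (Hlf, Mecom and others) fell. Pairs of libraries shared 10 to 26 cell barcodes, at most 0.355% of the cells of either. Of the 22 clusters, 2 were filled mainly by GMP replicate 1, with 1499 of 1690 and 907 of 1000 cells. The LMPP library stood apart in the Oas1 genes, described below. Its summed neutrophil markers reached 1652 CPM (UMIs per gene scaled by library size), against 39.7 CPM in CMP and 530, 446 and 511 CPM in GMP. A neutrophil-like cluster of 82 cells, led by Ngp, Camp and S100a9, held 78 LMPP cells (1.04% of that library). The part of these cells in the sum was not tested. Summed stem and multipotent markers were at 879 CPM in LMPP and 276 CPM in CMP, and lymphoid-primed markers at 434 and 481 CPM. Clusters named stem and multipotent-like held 89.5% of LMPP cells. The cluster named lymphoid-primed-like held 0.28% of LMPP and 28.5% of CMP cells. With 1 LMPP and 1 CMP library, the population and the library cannot be told apart.

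The stretch before the start site shows what many of these genes share. RefSeq promoter windows (GRCm38.p6, 250 bases before to 50 after the start) were matched for 31 of the 43 genes. The ISRE was searched as GAAANNGAAA, or TTTCNNTTTC on the other strand, and stood in 16 of the 27 induced genes with a window (59.3%), in 0 of the 4 receptor genes and in 3.99% of all 27025 promoters. The GAS was searched as TTCNNNGAA, which reads the same on both strands, and stood in 9 of the 27 (33.3%), 2 of the 4 and 9.55%, respectively. A match is a string of letters and not a shown binding site. The stretches below are the 150 bases before the start of 4 induced genes whose levels differ below, and of Ifngr1, a receptor gene, for contrast. They run 5′ to 3′ on the gene's strand, with ISRE matches in capitals.
Isg15 (chr4:156200819-156200968, minus strand): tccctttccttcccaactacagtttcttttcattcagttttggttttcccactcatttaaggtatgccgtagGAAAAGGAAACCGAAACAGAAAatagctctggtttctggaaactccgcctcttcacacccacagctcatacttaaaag
Ifit1 (chr19:34640739-34640888, plus strand): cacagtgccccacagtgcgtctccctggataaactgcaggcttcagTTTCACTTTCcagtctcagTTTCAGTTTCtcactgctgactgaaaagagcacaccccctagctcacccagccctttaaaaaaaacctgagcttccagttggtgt
Rsad2 (chr12:26456453-26456602, minus strand): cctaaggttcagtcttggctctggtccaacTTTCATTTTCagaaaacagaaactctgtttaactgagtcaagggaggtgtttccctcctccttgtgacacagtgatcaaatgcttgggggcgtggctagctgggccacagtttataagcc
Bst2 (chr8:71537473-71537622, minus strand): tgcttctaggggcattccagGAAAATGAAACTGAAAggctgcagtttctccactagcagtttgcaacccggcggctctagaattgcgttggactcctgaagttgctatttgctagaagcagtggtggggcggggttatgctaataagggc
Ifngr1 (chr10:19591799-19591948, plus strand): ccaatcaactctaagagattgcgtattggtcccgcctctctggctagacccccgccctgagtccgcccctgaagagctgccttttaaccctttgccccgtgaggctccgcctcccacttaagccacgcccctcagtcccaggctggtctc
Isg15 holds 3 overlapping matches, the first 78 bases before the start. Bst2 holds 2 overlapping matches from 130 bases before the start, Ifit1 holds 2 separate ones from 104 bases, and Rsad2 holds 1 at 120 bases. The ISRE was as common among the genes that were lower in GMP than in CMP (9 of 15, 60.0%) as among the other induced genes (7 of 12, 58.3%).

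Levels are given as CPM of the summed UMIs of each library, scaled by TMM (trimmed mean of M-values). A UMI counts a transcript once whatever its length. Of the 43 genes, 22 reached 20 CPM in at least 1 library and are given by their values, and 21 stayed below it in every library and are given by ranges. In a summed level, fewer cells holding an RNA and less RNA per cell cannot be told apart. Differences are log2(GMP) minus log2 of the other library, with the standard error, and GMP was compared with CMP and with LMPP by edgeR's quasi-likelihood test with Benjamini-Hochberg adjustment. The 2 comparisons share the GMP libraries.

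In GMP against CMP, 25 of the 43 genes fell, 4 rose (Ifngr1, Ifngr2, Trim25 and Bst2) and 14 did not pass the test. The median difference was -0.69, against -0.04 over the 19719 genes tested, of which 32.6% passed, 19.0% lower and 13.6% higher. In GMP against LMPP, 29 fell, 6 rose (Ifngr1, Ifngr2, Trim25, Ifitm2, Ifi27 and Ifi35) and 8 did not pass, with a median of -1.28 against -0.09 over all genes, of which 57.6% passed, 31.6% lower and 26.0% higher. Oas1a passed the filter on low counts through LMPP alone, and Ifit3 through LMPP and CMP. Without these 2 genes, 24 of 41 fell and 4 rose against CMP, and 27 of 41 fell and 6 rose against LMPP. Under scaling by total UMIs in place of TMM, which moves the median of all genes to -0.33 against CMP and -0.69 against LMPP, 31 genes fell and 3 rose against CMP, where 30.3% of all genes were lower and 7.34% higher. Under the same scaling 35 fell and 2 rose against LMPP, where 51.7% of all genes were lower and 11.1% higher.

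**Figure D1:**
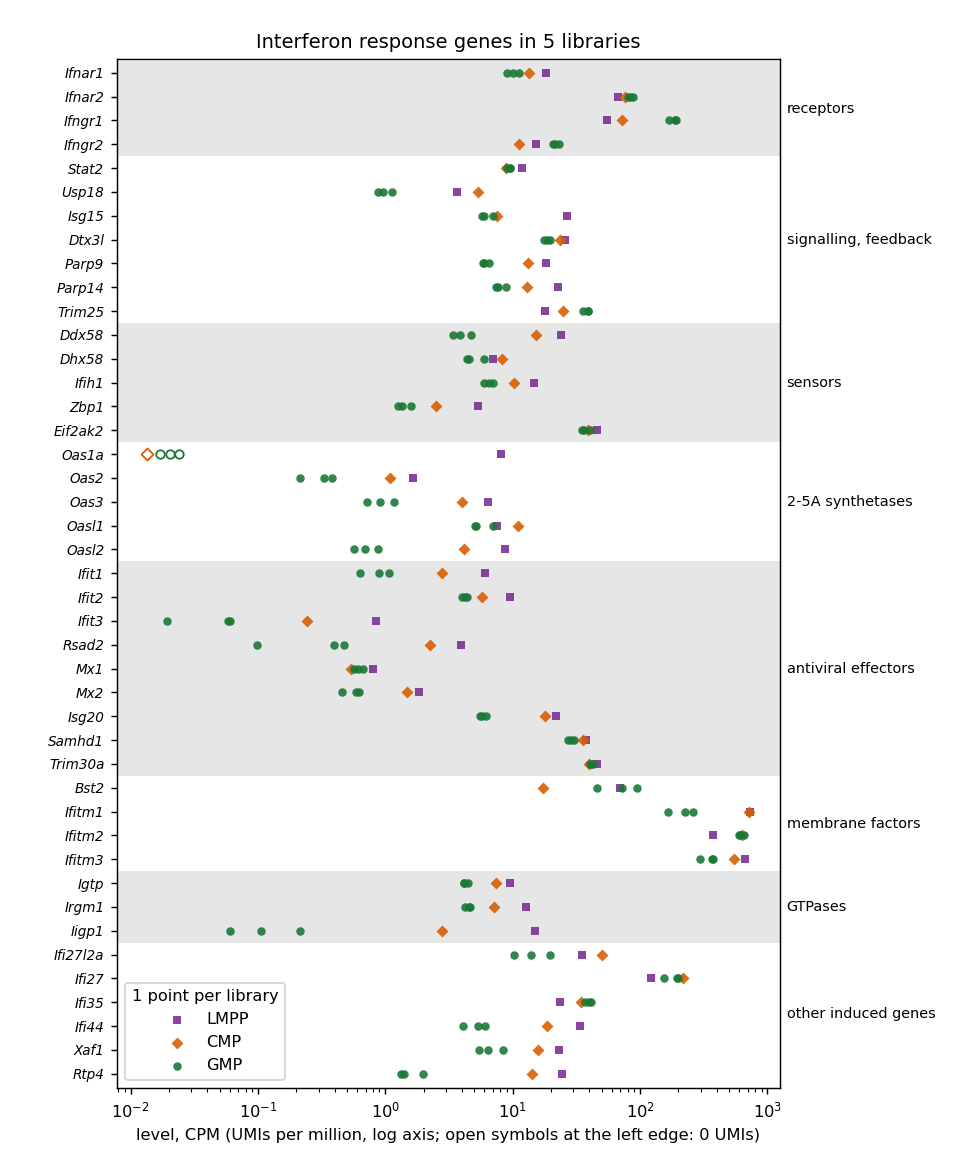
Levels of the 43 genes in the 5 libraries, grouped by role, in CPM on a log axis; each symbol is 1 library, and open symbols at the left edge are libraries with 0 UMIs. Oas1a has 0 UMIs outside LMPP, and Bst2 is the gene whose CMP value (17.4 CPM) lies below the 3 GMP values (46.3 to 94.7 CPM) while LMPP (69.4 CPM) lies among them.

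The receptor subunits were higher in GMP or did not pass the test against CMP. Ifngr1, the ligand-binding chain of the interferon gamma receptor, was at 54.9 CPM in LMPP, 72.0 CPM in CMP and 190, 169 and 191 CPM in GMP. It rose by 1.35 ± 0.15 over CMP (adjusted p = 0.00037) and by 1.74 ± 0.15 over LMPP (adjusted p = 6.5e-05). Its partner chain Ifngr2 was at 15.1 CPM in LMPP, 11.2 CPM in CMP and 23.0, 20.6 and 21.4 CPM in GMP. It rose by 0.96 ± 0.15 over CMP (adjusted p = 0.0022), with every GMP library above both other libraries. Against LMPP it rose by 0.52 ± 0.14, a difference that turned to -0.10 under scaling by total UMIs. Ifnar2 of the alpha/beta receptor was at 67.3 CPM in LMPP, 75.8 CPM in CMP and 87.9, 80.6 and 82.9 CPM in GMP, and passed neither test. Ifnar1, its partner, stayed under 20 CPM, with 18.2 CPM in LMPP, 13.5 CPM in CMP and 8.97 to 11.3 CPM in GMP. It fell by 0.85 ± 0.16 on the log2 scale against LMPP (adjusted p = 0.0026), and its difference from CMP was -0.42 ± 0.16 (adjusted p = 0.089). Summed, the 4 receptor genes stood at 156 CPM in LMPP, 172 CPM in CMP and 299 ± 16.1 CPM in GMP (SD, n = 3), where Ifngr1 made up most of the sum.

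Among the 7 genes of signalling and its feedback, 3 fell against CMP, Trim25 rose and 3 did not pass. Isg15, a ubiquitin-like protein that is attached to other proteins, was at 26.6 CPM in LMPP, 7.5 CPM in CMP and 5.96, 7.02 and 5.74 CPM in GMP. It fell by 2.09 ± 0.15 against LMPP (adjusted p = 3.1e-05), while CMP and GMP differed by -0.26 ± 0.17 (adjusted p = 0.27), so its main step lay between the LMPP library and the other 4. Parp14, an ADP-ribosyltransferase, was at 22.9 CPM in LMPP, 13 CPM in CMP and 8.89, 7.71 and 7.45 CPM in GMP, and fell against CMP by 0.69 ± 0.16 (adjusted p = 0.011). Dtx3l, a ubiquitin ligase that works as a pair with Parp9, was at 25.8 CPM in LMPP, 23.7 CPM in CMP and 19.7, 18.6 and 17.6 CPM in GMP. Its difference from CMP was -0.34 ± 0.14 (adjusted p = 0.090), whereas Parp9 itself fell by 1.11 ± 0.14 (adjusted p = 0.00091). Trim25, a ubiquitin ligase that activates the RNA sensor RIG-I, was at 18.1 CPM in LMPP, 24.8 CPM in CMP and 39.3, 38.9 and 35.4 CPM in GMP. It rose by 0.61 ± 0.14 over CMP (adjusted p = 0.012), a call that scaling by total UMIs ended (0.30, adjusted p = 0.12). The other 3 genes, Stat2, Usp18 and Parp9, lay between 3.69 and 18.4 CPM in LMPP, 5.38 and 13.3 CPM in CMP, and 0.88 and 9.49 CPM in GMP. Of these, Usp18, which removes Isg15 from proteins and damps the alpha/beta receptor, fell most against CMP, by 2.42 ± 0.22 (adjusted p = 0.00017).

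Of the 5 sensors of foreign nucleic acid, 4 fell against CMP and Eif2ak2 did not pass. Ddx58, which encodes RIG-I, was at 23.8 CPM in LMPP, 15.2 CPM in CMP and 4.72, 3.88 and 3.43 CPM in GMP. It fell by 1.92 ± 0.18 against CMP (adjusted p = 0.00019) and by 2.57 ± 0.18 against LMPP (adjusted p = 2.2e-05). Eif2ak2, the kinase PKR that halts translation on binding double-stranded RNA, was at 46.1 CPM in LMPP, 39.0 CPM in CMP and 36.3, 40.8 and 34.8 CPM in GMP, with CMP inside the GMP range. The low sensors Dhx58, Ifih1 (MDA5) and Zbp1 lay between 5.34 and 14.6 CPM in LMPP, 2.50 and 10.3 CPM in CMP, and 1.27 and 7.07 CPM in GMP. For Zbp1 the adjusted p of 0.027 became 0.068 with DESeq2's Wald test, 0.090 without GMP replicate 2 and 0.087 without replicate 3. Dhx58 passed neither without replicate 2 (adjusted p = 0.075) nor without replicate 3 (adjusted p = 0.067), and Ifih1 did not pass without replicate 3 (adjusted p = 0.067).

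The oligoadenylate synthetase family makes the short adenylate chains that switch on RNase L, and its 5 genes were all low. They lay between 1.65 and 8.77 CPM in LMPP, up to 11.1 CPM in CMP and up to 6.97 CPM in GMP, and 4 of the 5 fell against CMP. Oasl2 fell by 2.50 ± 0.24 (adjusted p = 0.00023), Oas3 by 2.09 ± 0.27, Oas2 by 1.75 ± 0.35 and Oasl1 by 0.95 ± 0.21. The summed level of the 5 genes was 32.4 CPM in LMPP, 20.3 CPM in CMP and 7.69 ± 1.05 CPM in GMP (SD, n = 3). Oas1a, singled out after its values were seen, had 895 UMIs in LMPP and 0 in each of the other 4 libraries. Set against a floor of 3 counts per library, its level in LMPP was at least 232-fold higher than in CMP and at least 220-, 279- and 274-fold higher than in the GMP replicates. Its neighbour Oas1g had 114 UMIs in LMPP and 0 elsewhere. Of the 50-base words of the last 500 transcript bases of Oas1a, 56.1% also occur in Oas1g. Reads of these words do not tell the pair apart. Oas1b and Oas1c had UMIs in every library (148 to 457 and 84 to 569). Over all genes, 6 had at least 100 UMIs in LMPP and at most 3 over the other 4 libraries together. For 1 gene the reverse held, with at most 3 UMIs in LMPP and at least 100 in each other library. For each other library both counts were 0. The labels give the same strain and genotype for all libraries, and a difference of the LMPP mice, of the processing of that library or of the population cannot be told apart here, which bears on every comparison with LMPP.

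Of the 9 antiviral effectors, 5 fell against CMP and 4 did not pass. Isg20, an exonuclease of single-stranded RNA, was at 21.8 CPM in LMPP, 18.0 CPM in CMP and 6.13, 5.79 and 5.52 CPM in GMP, and fell by 1.63 ± 0.14 against CMP (adjusted p = 0.00012). Samhd1, which depletes deoxynucleotides, was at 37.4 CPM in LMPP, 35.9 CPM in CMP and 27.5, 28.6 and 30.1 CPM in GMP, a difference from CMP of -0.32 ± 0.13 (adjusted p = 0.092). Trim30a, a regulator of inflammatory signalling, was at 46.4 CPM in LMPP, 39.6 CPM in CMP and 40.4, 42.6 and 41.5 CPM in GMP, and passed neither test. Trim30a shares 19.9% of its 3' words with Trim30d, and reads of these words do not tell the pair apart. The 6 low effectors, Ifit1, Ifit2, Ifit3, Rsad2, Mx1 and Mx2, lay between 0.81 and 9.56 CPM in LMPP, 0.24 and 5.76 CPM in CMP, and 0.02 and 4.39 CPM in GMP. Rsad2 (viperin), which makes a chain-terminating nucleotide, fell by 2.76 ± 0.52 against CMP (adjusted p = 0.0051), and Ifit1, which binds foreign RNA ends, by 1.66 ± 0.29 (adjusted p = 0.0035). Ifit3 rested on 21 UMIs in CMP and 2 to 6 in GMP, and its adjusted p of 0.018 became 0.081 with DESeq2's Wald test. Ifit2 and Mx1 did not pass.

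The 4 membrane restriction factors include the most abundant genes of the set, summing to 1841 CPM in LMPP, 1907 CPM in CMP and 1257 ± 113 CPM in GMP (SD, n = 3), and they went different ways. The 3 Ifitm genes lie beside each other on chromosome 7 (mm10), at chr7:140967221-140969825 for Ifitm1, chr7:140954837-140955987 for Ifitm2 and chr7:141009586-141010770 for Ifitm3, and encode small membrane proteins that hold back virus entry. Ifitm1 was at 729 CPM in LMPP, 713 CPM in CMP and 263, 225 and 167 CPM in GMP. It fell by 1.71 ± 0.21 against CMP (adjusted p = 0.00074) and by 1.74 ± 0.21 against LMPP (adjusted p = 0.00032). Ifitm3 was at 669 CPM in LMPP, 548 CPM in CMP and 371, 374 and 295 CPM in GMP, and fell by 0.66 ± 0.16 against CMP (adjusted p = 0.017). That call was lost without GMP replicate 1 (adjusted p = 0.064) and without replicate 3 (adjusted p = 0.068). Ifitm2 ran the other way against LMPP, with 374 CPM in LMPP, 629 CPM in CMP and 655, 614 and 594 CPM in GMP. It differed from CMP by -0.02 ± 0.14 (adjusted p = 0.94) and rose over LMPP by 0.73 ± 0.14 (adjusted p = 0.0033), which became 0.11 (adjusted p = 0.41) under scaling by total UMIs. Ifitm2 shares 25.3% of its 3' words with the gene model Gm45717, and reads of these words do not tell the pair apart.

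Bst2 and Trim25 were the 2 induced genes that rose over CMP, and Bst2 was singled out with its values known. It encodes tetherin, which holds budding virus particles at the cell surface, and lies at chr8:71534255-71537456 (mm10, minus strand). It was at 69.4 CPM in LMPP, 17.4 CPM in CMP and 46.3, 94.7 and 71.6 CPM in GMP. The CMP library lay below all other libraries, and LMPP lay inside the GMP range. Bst2 rose by 2.02 ± 0.37 over CMP (adjusted p = 0.0044) and differed from LMPP by 0.03 ± 0.32 (adjusted p = 0.94). Its coefficient of variation over the GMP libraries was 34.1%, against a median of 11.5% over the genes with UMIs in GMP, and replicate 1 held the lowest value. The CMP value rests on 1 library.

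The 3 immunity-related GTPases, of a family that acts in defence against intracellular pathogens, all fell against both CMP and LMPP. They lay between 9.53 and 15.1 CPM in LMPP, 2.78 and 7.45 CPM in CMP, and 0.06 and 4.64 CPM in GMP. Igtp fell by 0.81 ± 0.16 against CMP and Irgm1 by 0.67 ± 0.16. Iigp1 fell by 4.21 ± 0.36 (adjusted p = 0.00012) against CMP and by 6.64 ± 0.34 against LMPP, from 1680 UMIs in LMPP and 241 in CMP to 5, 11 and 22 in GMP. In GMP it was close to the limit of counting.

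The 6 induced genes of other or unsettled role include the steepest fall among the genes over 20 CPM, that of Rtp4. Rtp4, a chaperone of cell surface receptors that also limits virus replication, was at 24.4 CPM in LMPP, 14.1 CPM in CMP and 1.40, 1.99 and 1.32 CPM in GMP. It fell by 3.15 ± 0.21 against CMP (adjusted p = 4.3e-05) and by 3.94 ± 0.21 against LMPP (adjusted p = 7e-06). Ifi44 was at 33.9 CPM in LMPP, 18.6 CPM in CMP and 4.08, 6.07 and 5.36 CPM in GMP, and fell by 1.84 ± 0.20 against CMP (adjusted p = 0.00037). Both kept the order LMPP, CMP, GMP, with no overlap. Xaf1, which antagonises the apoptosis inhibitor XIAP, was at 23.0 CPM in LMPP, 15.9 CPM in CMP and 8.36, 6.46 and 5.40 CPM in GMP, and fell by 1.24 ± 0.22 against CMP (adjusted p = 0.0037). Ifi27l2a was at 35.1 CPM in LMPP, 50.2 CPM in CMP and 19.5, 13.8 and 10.2 CPM in GMP, so CMP held its highest value, and it fell by 1.79 ± 0.28 (adjusted p = 0.0021). Its neighbour Ifi27 was at 121 CPM in LMPP, 217 CPM in CMP and 195, 200 and 154 CPM in GMP. It did not pass against CMP, and rose over LMPP by 0.59 ± 0.18 (adjusted p = 0.022), a difference that became -0.02 under scaling by total UMIs and lost its call without GMP replicate 1 or 2. Ifi35, which binds the partner protein Nmi, was at 23.4 CPM in LMPP, 34.4 CPM in CMP and 40.9, 39.5 and 36.7 CPM in GMP, and rose over LMPP alone (0.74 ± 0.14, adjusted p = 0.0027), a call that scaling by total UMIs ended.

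CMP and LMPP are 1 library each, so they were compared without a test, by the ratio of CPM with an exact interval that covers counting error only. Past 2-fold, 8 genes were lower in CMP (Isg15, Zbp1, Oas1a, Oasl2, Ifit1, Ifit3, Bst2 and Iigp1) and 0 were higher. Over the 15878 genes with at least 50 UMIs, 12.9% were lower and 5.95% higher by this rule, and the median of the 43 genes was -0.44 against 0.02 over all. The ratio of CMP to LMPP was 0.282 (0.258 to 0.307) for Isg15, 0.251 (0.237 to 0.265) for Bst2 and 0.184 (0.160 to 0.211) for Iigp1. In contrast, Ifitm1 had a ratio of 0.978 (0.968 to 0.988), Ifitm2 one of 1.68 (1.66 to 1.70) and Ifi27 one of 1.79 (1.75 to 1.83). Isg15 thus had its lower level already in the CMP library, while Ifitm1 and Ifitm3 in CMP were still within 1.5-fold of LMPP.

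The share of cells with at least 1 UMI was taken after each cell was thinned to 2000 UMIs, since the median depths ranged from 9192 (LMPP) to 15062.5 (GMP replicate 3), and shallower cells were left out. Thinning scales a cell by its total UMIs and not by TMM. At this depth 37 of the 43 genes had a lower share in every GMP library than in CMP, while 52.7% of the 19719 genes tested did so (in the draw over all genes, 36 of the 43 did). Without thinning the count was 31, with 40.2% of all genes. For Ifnar2, Stat2, Trim30a and Ifi35 the share was lower in every GMP library than in CMP while the TMM-scaled level was higher in every one, so no order is read from their shares. Ifitm1 was found in 79.3% of LMPP, 60.5% of CMP and 21.6 ± 3.0% of GMP cells (SD, n = 3), and Ifitm3 in 81.3%, 65.5% and 41.1 ± 3.5%. Ifitm2 stayed at 62.5%, 72.5% and 65.8 ± 0.2%. Rtp4 went from 6.66% and 3.35% to 0.298 ± 0.104%, and Ifi44 from 9.71% and 4.42% to 0.93 ± 0.26%. Bst2 was found in 16.3% of LMPP, 3.59% of CMP and 7.47%, 14.9% and 12% of GMP cells. Ifngr1 was found in 12.7%, 13.1% and 26.3 ± 2.1%. Free RNA in the droplets adds a low share to every cell type. The lowest share in any class of at least 100 cells in a library was 9.6% for Ifitm1 (granulo-monocytic-like cells of GMP replicate 3, median depth 15837 UMIs) and 1.1% for Bst2 (erythroid-like cells of CMP, 16856 UMIs).

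Whether the lower level was shared by the cells or came from a few was read from the sum of 35 induced genes per cell, without the 4 membrane factors, which would dominate it. At 2000 UMIs, which scales by total UMIs, a cell held on average 1.98 of these UMIs in LMPP, 1.57 in CMP and 0.885, 0.93 and 0.811 in GMP, that is 0.559 ± 0.038 times the CMP and 0.443 ± 0.030 times the LMPP mean (SD, n = 3). Without Ifi27, the most abundant of the 35, the ratios were 0.523 ± 0.021 and 0.336 ± 0.013. Under TMM, the scaling of the levels above, the 35 genes summed to 684 CPM in LMPP, 666 CPM in CMP and 514, 514 and 444 CPM in GMP, that is 0.736 ± 0.061 times CMP and 0.718 ± 0.059 times LMPP (SD, n = 3). Cells with none of these UMIs made up 21.4% of LMPP, 27.3% of CMP and 44.0%, 41.7% and 46.5% of GMP. If UMIs fell on cells at random (a Poisson law of the same mean), 13.9%, 20.9%, 41.3%, 39.5% and 44.5% would be at 0. The variance over the mean was 2.16 in LMPP, 1.64 in CMP and 1.16 to 1.19 in GMP, against 1 for random placement. Without thinning, where cells also differ in depth, it was 9.04 in LMPP, 5.365 in CMP and 2.92, 2.61 and 2.55 in GMP. The values near 1 in GMP thus hold at 2000 UMIs, where the GMP means are also lowest. The sum was spread more unevenly in LMPP and CMP at both settings, but this was not separated from their higher means.

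Cells with UMIs of at least 3 of the 35 genes were 24.99% of LMPP, 15.3% of CMP and 4.34%, 4.78% and 3.56% of GMP. Cells with at least 5 numbered 420 in LMPP (5.64%), 179 in CMP (2.62%) and 16, 22 and 14 in GMP (0.20%, 0.25% and 0.19%). The highest sum in a cell was 43 in LMPP, 17 in CMP and 17, 16 and 10 in GMP. Single cells with high sums were thus found in GMP as well. The counts above are at 2000 UMIs and were not taken under TMM. Without thinning, cells with at least 5 of the 35 genes were 63.25% of LMPP, 50.15% of CMP and 24.5%, 31.58% and 37.44% of GMP. The GMP libraries are deeper per cell, which raises their unthinned shares. GMP stayed lowest at both settings, but the size of its distance from CMP and LMPP depended on the depth.

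**Figure D2:**
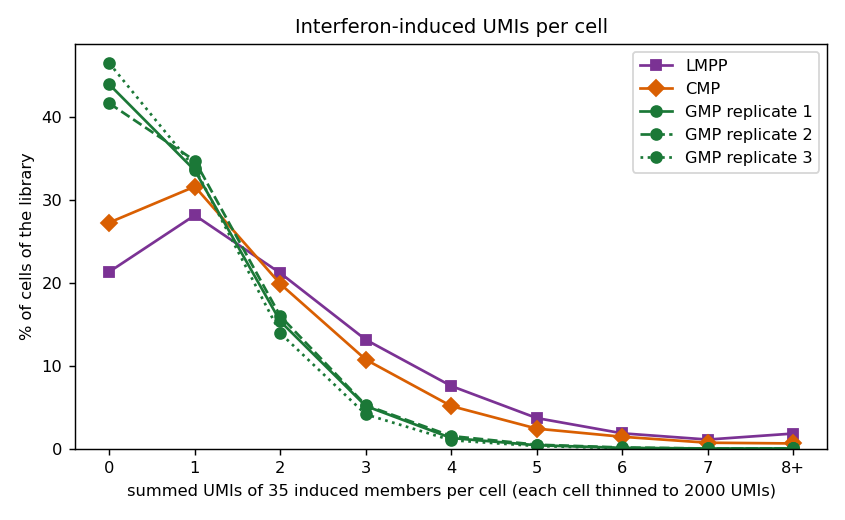
Share of cells (percent) by the number of UMIs of the 35 induced genes at 2000 UMIs per cell, for each library. The 3 GMP libraries lie over each other, with 41.7% to 46.5% of cells at 0, while LMPP and CMP have 21.4% and 27.3% at 0 and longer upper ends.

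The sum also differed between classes of cells within a sort. Clusters were made without the 43 genes and without the further interferon and antigen presentation genes, and were named from markers. Within CMP, the mean sum per cell was 2.23 in B cell-like, 1.89 in lymphoid-primed-like, 1.23 in basophil and mast cell-like, 1.21 in megakaryocyte-like, 1.10 in erythroid-like and 0.84 in monocyte-like cells. The lymphoid-primed-like cluster was led by the stress and early response genes Cdkn1a, Nr4a1 and Socs3 and named by its raised markers. In LMPP the stem and multipotent-like cells averaged 2.06 and B cell-like cells 1.69, and the cluster led by Hlf, Txnip and the early response genes Fosb and Fos was highest, at 2.46. In GMP the classes lay closer together, at 0.774, 0.844 and 0.705 in monocyte-like, 0.90, 0.885 and 0.820 in granulo-monocytic-like and 1.14, 1.06 and 1.15 in basophil and mast cell-like cells. The classes fill the sorts unequally: lymphoid-primed-like and megakaryocyte-like cells made up 28.5% and 23.8% of CMP and at most 0.64% of a GMP library, and monocyte-like and granulo-monocytic-like cells made up 2.47% and 0.01% of CMP and 35 ± 4.3% and 31.5 ± 4.7% of GMP (SD, n = 3). With these lists, all 7 stem, 7 lymphoid-primed, 8 erythroid and 7 megakaryocyte markers fell in GMP against CMP. The 6 tested of 7 plasmacytoid dendritic cell markers also fell, their sum going from 236 CPM in LMPP and 183 CPM in CMP to 62.3 to 77.5 CPM in GMP, where 1 to 3 of the 7 were at 0. Their part in the differences of whole libraries was not tested.

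**Figure D3:**
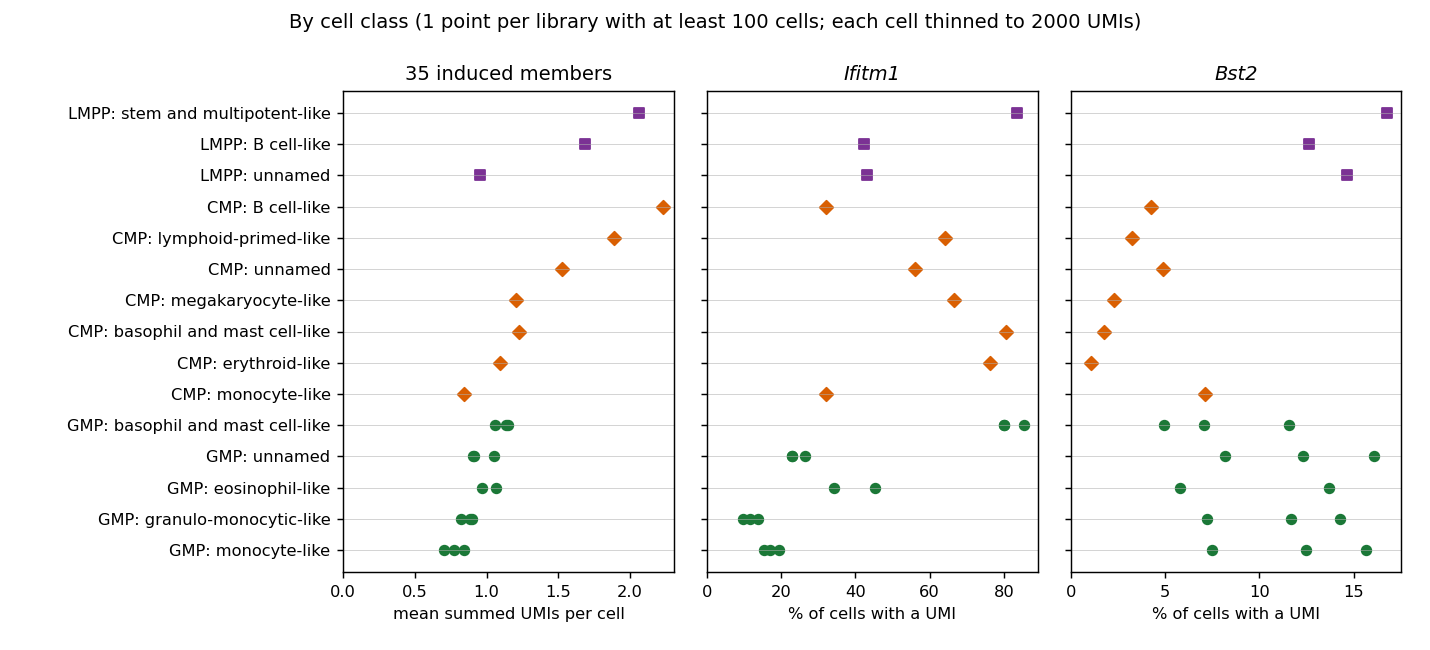
Mean UMIs per cell of the 35 induced genes at 2000 UMIs per cell, for each class with at least 100 cells in a library; each symbol is 1 library. CMP classes spread from 0.84 (monocyte-like) to 2.23 (B cell-like), and GMP classes lie between 0.705 and 1.15.

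Within groups of cells that both sorts hold, the medians of the genes tested there lay closer to 0 than the median over whole libraries. Named classes needed 100 or more cells in CMP and in every GMP library, and the one richest in CMP cells was taken. This was the class of basophil and mast cell-like cells, with 173 cells in CMP and 554, 723 and 369 in GMP. Cluster 15 held 114 of the CMP and 270, 270 and 208 of the GMP cells. The other cells lay in cluster 14, 59 of CMP and 284, 453 and 161 of GMP. CMP and GMP cells were thus spread in different proportions over the clusters of this class. Of the 32 genes tested there, 0 fell and Bst2 alone rose, by edgeR's test at the adjusted threshold (backgrounds of 1.58% and 2.42% of 11002 genes). The same held at an unadjusted p under 0.05, with 0 lower and 1 higher, and no other tool was run on this class. The median difference of the 32 was -0.005. Ifitm1 was at 2911 CPM in the CMP cells of this class and 3450, 2222 and 2903 CPM in the GMP cells, a difference of -0.03 ± 0.23 (adjusted p = 0.97). Bst2 was at 10.7 CPM in CMP and 28.9, 66.7 and 44.1 CPM in GMP, a rise of 2.08 ± 0.38 (adjusted p = 0.00028). The standard errors limit what these 173 cells can show: Rtp4 differed by -0.22 ± 0.53.

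The monocyte-like class and a cluster of dividing cells were added after the data were seen. The monocyte-like class held 170 cells in CMP and 2613, 3096 and 2901 in GMP, in 4 clusters. Cluster 2 held 156 of the CMP cells and 860, 1341 and 1465 of the GMP cells, and the others lay in clusters 3, 13 and 17, so CMP and GMP cells were spread over the clusters of the class in different proportions. In this class 39 genes were tested: Parp9 fell by 1.17 ± 0.23 (adjusted p = 0.036), Ifitm1 fell by 0.97 ± 0.19 (adjusted p = 0.036) and Ifngr1 rose by 0.80 ± 0.15 (adjusted p = 0.027). Of all 15407 genes 2.71% passed, 1.19% lower and 1.51% higher, and the median of the 39 was -0.20. Bst2 was at 24.1 CPM in CMP and 42.2, 92.5 and 67.0 CPM in GMP monocyte-like cells, a difference of 1.48 ± 0.44 (adjusted p = 0.12). Leaving out GMP replicate 1, whose cells fill most of 1 monocyte-like cluster, raised the calls in this class to 8 lower and 4 higher, while those of all 15182 genes rose to 8.91% lower and 9.72% higher. The unnamed cluster led by the mitotic genes Pimreg, Nusap1 and Ube2c held 647 CMP and 535, 819 and 487 GMP cells. Of its 38 genes tested, 4 fell (Iigp1 by 2.17 ± 0.60, Rtp4 by 1.61 ± 0.29, Ifi27l2a by 1.43 ± 0.23 and Ifi44 by 1.09 ± 0.22), Bst2 rose by 1.63 ± 0.28 and Ifngr1 by 0.82 ± 0.16, with backgrounds of 4.31% lower and 3.38% higher of 12962 genes and a median of -0.17. Without GMP replicate 1, 11 fell and 4 rose, with 1773 of all 13128 genes lower (13.5%) and 1575 higher (12%). Over whole libraries the median was -0.72 over the 42 genes with UMIs in CMP or GMP. The groups of cells were tested on fewer genes and fewer cells, and their distance from the whole libraries was not tested. Genes not tested in basophil and mast cell-like cells include Iigp1, Rsad2, Oasl2 and Oas3, at -4.21, -2.76, -2.50 and -2.09 over whole libraries. Of the genes with UMIs left out there, Mx1 alone lay above 0 (0.18). The medians are thus of unlike sets of genes. Bst2 was higher in GMP in all 3 groups of cells and passed the test in 2 of them.

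**Figure D4:**
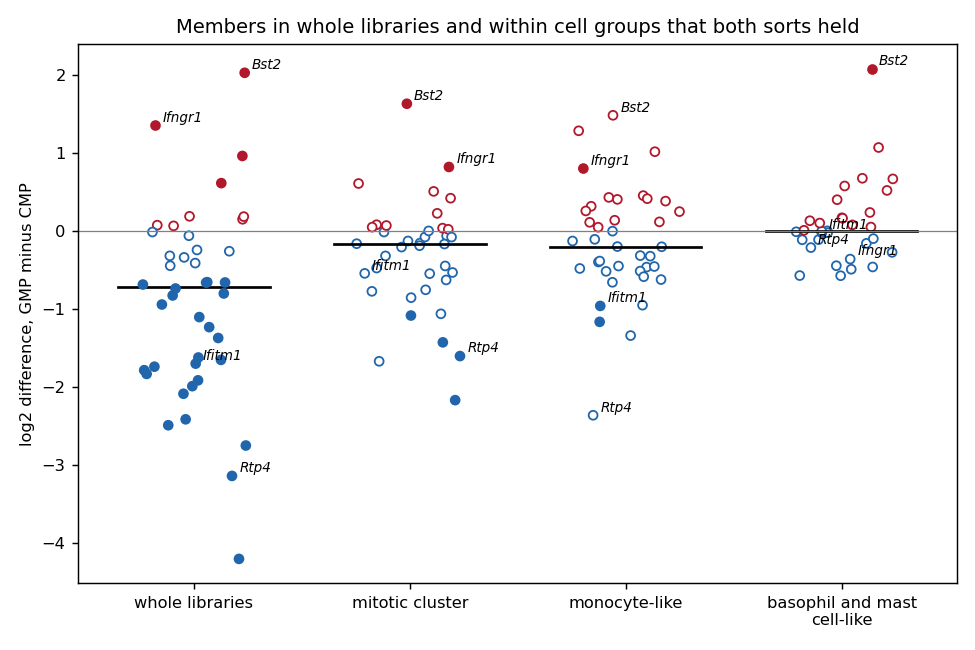
Log2 difference of GMP from CMP for each gene over whole libraries and within 3 groups of cells; each symbol is 1 gene and the line is the median. The median is -0.72 over whole libraries, -0.17 in the mitotic cluster, -0.20 in monocyte-like and -0.005 in basophil and mast cell-like cells.

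The difference between the monocyte-like and the basophil and mast cell-like class was itself tested by an interaction term, over 34 of the genes. The term passed for 2 of them, Ifngr1 (1.12 ± 0.15, adjusted p = 6.9e-07) and Ifitm1 (-0.98 ± 0.16, adjusted p = 2.8e-05), against a background of 4.20% of 12119 genes, and 9 had an unadjusted p under 0.05. In the basophil and mast cell-like class Ifngr1 was at 152 CPM in CMP and 117, 107 and 132 CPM in GMP. In the monocyte-like class it was at 78.3 CPM in CMP and 134, 133 and 142 CPM in GMP.

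Within GMP, the 2 largest classes differed in both directions. Monocyte-like and granulo-monocytic-like cells were compared with the library as a block, on UMIs that took no part in naming the classes. Of 37 genes tested, 12 were higher and 10 lower in monocyte-like cells, against 18.1% and 18.0% of all 13168 genes, of which 36.1% passed. Ifitm3 was at 395, 411 and 333 CPM in monocyte-like and 174, 197 and 153 CPM in granulo-monocytic-like cells, higher by 1.12 ± 0.04 (adjusted p = 3.3e-19). Ifi27l2a was at 24, 17.2 and 12.9 CPM against 4.77, 4.02 and 3.60 CPM, higher by 2.06 ± 0.09, and Ifnar2 was higher by 0.75 ± 0.04. Ifngr1 went the other way, with 126, 121 and 134 CPM against 261, 209 and 231 CPM, lower by 0.87 ± 0.04 in monocyte-like cells. Ddx58 was at 1.24, 1.24 and 0.86 CPM against 5.88, 3.55 and 3.1 CPM, and Isg20 at 2.92, 1.92 and 2.06 CPM against 8.74, 6.1 and 6.79 CPM. In each of these genes the classes did not overlap. Bst2, with 41.1, 87.9 and 64.0 CPM against 38.3, 81.8 and 61.8 CPM, did not pass (0.08 ± 0.04, adjusted p = 0.11): its GMP libraries differed from each other in both classes alike, replicate 1 being lowest. Ifitm1 was high in another class: at 2000 UMIs it was found in 85.3%, 80.0% and 79.9% of GMP basophil and mast cell-like cells, in 19.4%, 16.9% and 15.4% of monocyte-like and in 11.6%, 13.7% and 9.6% of granulo-monocytic-like cells.

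The rest of the pathway was read from gene lists. Differences in these lists are GMP against CMP, where 19.0% of the 19719 genes tested were lower and 13.6% higher. Of 11 interferon genes, none had a UMI in GMP, while 8 were at 0 in LMPP and 10 in CMP. Ifna2 and Ifng, at about 0.01 CPM in LMPP or CMP, had the highest means, which is at the limit of counting. No contrast with GMP is read from these values. Among the kinases and transcription factors downstream of the receptors, genes were named for a high mean or a large change past the test, so they do not show how the list moved. Irf7, a factor which amplifies alpha interferon, was at 21.7 CPM in LMPP, 19.0 CPM in CMP and 3.59, 3.54 and 2.68 CPM in GMP, and fell by 2.53 ± 0.18 (adjusted p = 5.5e-05). Irf2, a repressor at the same elements, fell by 0.95 ± 0.18 and the kinase Jak1 by 0.58 ± 0.13. Of the 12 tested genes that sense nucleic acid upstream of interferon, 1 fell (Tlr7, by 2.19 ± 0.35), 1 rose (the kinase Ikbke, by 1.63 ± 0.21) and 10 did not pass. The abundant members of that list, Tmem173 (STING) with a difference of 0.26 ± 0.15 and the Toll-like receptor chaperone Unc93b1 with 0.44 ± 0.24, were among the 10.

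Of the 9 negative regulators, which include Isg15 and Usp18 of the 43, 3 fell and 6 did not pass. Socs3, a feedback inhibitor of Jak kinases, was at 9.32 CPM in LMPP, 23.6 CPM in CMP and 1.97, 0.66 and 0.46 CPM in GMP, and fell by 4.53 ± 0.52 (adjusted p = 0.00053). The phosphatase Ptpn6 differed by -0.01 ± 0.14 and Irf2bp2 by 0.10 ± 0.14. Of the 12 genes of MHC class I presentation, 5 fell and 7 did not pass. H2-D1, a class I heavy chain, was at 552 CPM in LMPP, 592 CPM in CMP and 281, 245 and 258 CPM in GMP, and fell by 1.18 ± 0.13 (adjusted p = 0.00045), and the peptide transporter subunit Tap2 fell by 1.23 ± 0.13. Psmb8 of the immunoproteasome and its activator Psme1 differed by 0.24 ± 0.14 and 0.27 ± 0.16. Of the 58 tested of 61 further interferon-induced genes, 30 fell, 9 rose and 19 did not pass, with a median of -0.78. Over all 19719 genes tested, 19.0% were lower and 13.6% higher. The summed level of this list went the other way, with 1252 CPM in LMPP, 1466 CPM in CMP and 1758 ± 68.5 CPM in GMP (SD, n = 3). Mndal fell by 0.85 ± 0.16, and the guanylate-binding proteins Gbp4 and Gbp8 fell by 4.36 ± 0.36 and 4.23 ± 0.45 from under 1 CPM in CMP. Ly6e was among the 9 that rose, at 104 CPM in LMPP, 395 CPM in CMP and 970, 1112 and 1079 CPM in GMP, a rise of 1.42 ± 0.16 over CMP (adjusted p = 0.00047).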

How the data were processed

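Per the labels' protocols, single-cell 3' v3 libraries (10x Genomics) were made from sorted cells. Per the submitters' processing notes, Cell Ranger 3.1.0 and Seurat 3.1.1 were used with mm10, whereas the file headers name Cell Ranger 6.1.1. How the deposited barcodes were selected is not given in the sources used here. The authors deposited counts of UMIs per gene and barcode. All 55450 gene identifiers matched GENCODE M21.

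Barcodes under 500 genes, under 1000 UMIs or over 10% mitochondrial UMIs were taken out (77 to 387 per library), as were called doublets (432 to 783). The libraries kept 79836832 to 117452649 UMIs, so counting error matters only for genes with few UMIs. UMIs were summed per library or class and tested with edgeR 4.0.16 (R 4.3.3) by quasi-likelihood, with filterByExpr, TMM, a prior count of 2, all 5 libraries in the fit and Benjamini-Hochberg adjustment at 0.05. Only the GMP libraries give residual degrees of freedom (2), and CMP and LMPP are assumed to vary like them. DESeq2 1.42.0 was an alternative. Cells were clustered with leidenalg 0.10.2 at resolution 1 on 2000 variable genes, without the 43 genes and the pathway lists. A cluster took a name when at least 3 markers were raised 1.5-fold. For the comparison of GMP classes, UMIs were randomly split per cell into 2 parts, for naming and for testing. Scripts were tested on simulated data. Genes at 20 CPM or more in a library are given by value, and of each pathway list the 2 with the highest mean and the 2 with the largest change past the test. Rsad2, Usp18, Parp9, Iigp1, Ifit1, Ifit3, Igtp, Irgm1 and single Oas and sensor genes fall outside this rule and were named after their values were seen. The genes and lists were chosen with earlier results of these data known. The counts of the list of kinases and transcription factors downstream of the receptors are not reported here.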

Additional observations from a re-analysis of the deposited data

Results flagged for a closer look

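Under the same contrast, GMP minus CMP, the monocyte-like class and the basophil and mast cell-like class differed for 2 of the 34 genes tested by a test of the difference itself (edgeR, interaction term), which 4.20% of all 12119 genes passed. For Ifngr1 the difference between the classes was 1.121 on the log2 scale, and for Ifitm1 it was -0.9777. In the monocyte-like class every GMP library lay above CMP for Ifngr1 and below it for Ifitm1. In the basophil and mast cell-like class every GMP library lay below CMP for Ifngr1, and CMP lay inside the GMP range for Ifitm1. Each class has 1 CMP library, of 170 and 173 cells. CMP and GMP cells were spread over the clusters of each class in different proportions, and the part of this was not tested.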

How the results depend on the processing

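With TMM or DESeq2 size factors, without the low-count filter, with all barcodes or doublets kept, and with only the groups compared, GMP against CMP gave 25 genes lower and 4 higher. DESeq2's Wald test gave 23 and 4, and leaving out a GMP replicate gave 21 to 27 and 4, Dtx3l, Ifit2 and Samhd1 also passing as lower without replicate 1 (adjusted p = 0.038, 0.041 and 0.047). Against LMPP, Dtx3l and Samhd1 lost their calls without replicate 2 or 3 (adjusted p = 0.093 to 0.17), and Samhd1 also with DESeq2's Wald test (0.077) and without the low-count filter (0.063). Scaling by total UMIs moved most counts: genes higher in GMP than in LMPP fell to 2, with Ifngr2 (-0.0987) and Ifi27 (-0.0243) reversed, genes lower in CMP than in LMPP rose to 14 (2 under a 4-fold rule), and 4 genes were lower and 0 higher in the monocyte-like class and 7 lower in the mitotic cluster. Over all genes, this scaling put 19.4% lower in CMP than in LMPP (576 of 15878 under the 4-fold rule with TMM). It put 2.74% lower and 1.08% higher in the monocyte-like class, and 5.15% lower in the mitotic cluster. The cause was not tested, beyond the shift of all genes given above. The groups of cells, the interaction, the sum under TMM and the single-replicate fits of sums and shares were added after seeing the data. Without a GMP replicate, genes lower numbered 3 to 8 and genes higher 2 to 4 in the monocyte-like class, 3 to 11 and 2 to 4 in the mitotic cluster, and 2 to 3 passed the interaction, which scaling by total UMIs put at 3. Leaving out replicate 1 gave the highest counts in both groups of cells, for these genes and for all genes tested. The basophil and mast cell-like class kept 0 lower and 1 higher throughout, and the sum of 35 genes in GMP stayed at 0.542 to 0.580 times CMP, but was 0.736 times CMP and 0.718 times LMPP under TMM.

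No paired analysis was possible between the sorts because only the GMP labels carry replicate numbers. Within GMP, the fit with no replicate block called 6 genes lower and 9 higher in monocyte-like cells, against 10 and 12 with it. Of all 13168 genes it called 631 lower and 763 higher, against 2372 and 2378 with the block.

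Limits: 1 CMP and 1 LMPP library, 173 and 170 CMP cells in the named classes, and few UMIs for Ifit3, Iigp1, Mx1 and Rsad2 in GMP.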
